A study of Homo sapiens with 9 samples.

Results

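Cell-surface receptors tell apart the transcriptional states that melanoma cells can take, and 10 of them were followed here by gene symbol: AXL, EGFR, ERBB2, ERBB3, MET, PDGFRA, PDGFRB, FGFR1, KIT and NGFR. All 10 were among the 60420 gene IDs of the deposited tables, 9 of them were above 0 in both sets of files and so among the 13825 genes tested, and KIT was listed at 0 in all 9 libraries. The cells were A375, a human cell line from a malignant melanoma. RNA was taken 7 days after knockdown of the SPANX cancer-testis antigens and counted from the 3' ends of polyadenylated transcripts (QuantSeq 3' mRNA-Seq). The 3 groups of 3 libraries were an EV control and the knockdowns labelled SPANX KD 86 and SPANX KD 87, called constructs 86 and 87 below. All groups share the A375 background, a single cell line, and the means of knockdown is not given in the sources used here.

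Receptor tyrosine kinases bind a growth factor outside the cell, pair up and phosphorylate each other on tyrosines, to which adaptors dock that feed the RAS-MAPK and PI3K pathways. In melanoma, KIT and ERBB3 are associated with melanocytic cells. AXL, EGFR and the PDGF receptors are associated with dedifferentiated cells, and NGFR marks a neural crest-like state. NGFR, the p75 neurotrophin receptor, has no kinase and belongs to the TNF receptor superfamily. It is included because it is read together with these kinases when melanoma states are told apart.

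Levels below are normalised reads, the reads of a gene after all 9 libraries were scaled to a common size. Recovered depth lay between 11.3 and 15.6 M reads per library. SPANXC, a targeted transcript, stood at 400.03, 149.8 and 511 in EV libraries 1 to 3, 102, 35.1 and 42.2 in those of construct 86, and 25.2, 18 and 33.6 in those of construct 87, so it was lowest with construct 87 and below every EV library with both. SPANXD stood at 102, 27.4 and 97 in EV libraries 1 to 3, 0.969, 0.879 and 0 in those of construct 86, and 5.25, 5.99 and 7.13 in those of construct 87, where the construct 86 values are 2 reads in all. The SPANX genes are near-identical copies, so the split of reads between them is uncertain. The labels do not say that replicates came from separate cultures, and p-values therefore reflect no more than the library-to-library spread, which may be technical. In bulk RNA, fewer cells of a type and less RNA per cell cannot be told apart.

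The start-site regions of AXL, which fell with construct 86, of MET and PDGFRA, which rose, and of ERBB2, which differed between the constructs, are shown for reference, 250 bases before to 50 bases after a RefSeq transcription start (GRCh38.p14, all on the + strand). They are AXL at chr19:41218973-41219272, MET at chr7:116671946-116672245, PDGFRA at chr4:54229043-54229342 and ERBB2 at chr17:39687844-39688143. Of the 10 receptors, 7 had such an entry, and ERBB3 and NGFR had none. The chromosome of FGFR1 was left out of the search, so whether FGFR1 has an entry was not looked at. AXL and PDGFRA have a second entry each, described but not printed. Capitals mark any match, on either strand, to the AP-1 site TGANTCA, the E-box CACGTG, the M-box core CATGTG, the TEAD site GGAATG, the SOX site ACAAAG or the GC box GGGCGG.
AXL: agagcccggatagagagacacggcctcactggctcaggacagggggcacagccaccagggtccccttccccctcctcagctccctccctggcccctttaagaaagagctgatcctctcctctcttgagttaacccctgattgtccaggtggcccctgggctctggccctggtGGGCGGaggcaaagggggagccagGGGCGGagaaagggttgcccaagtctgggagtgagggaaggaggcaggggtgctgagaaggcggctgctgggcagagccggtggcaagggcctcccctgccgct
MET: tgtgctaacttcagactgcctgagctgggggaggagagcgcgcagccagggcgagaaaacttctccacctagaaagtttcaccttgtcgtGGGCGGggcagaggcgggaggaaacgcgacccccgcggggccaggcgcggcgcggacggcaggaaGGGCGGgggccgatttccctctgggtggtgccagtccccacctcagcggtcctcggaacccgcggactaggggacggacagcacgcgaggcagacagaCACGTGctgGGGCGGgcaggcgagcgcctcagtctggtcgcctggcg
PDGFRA: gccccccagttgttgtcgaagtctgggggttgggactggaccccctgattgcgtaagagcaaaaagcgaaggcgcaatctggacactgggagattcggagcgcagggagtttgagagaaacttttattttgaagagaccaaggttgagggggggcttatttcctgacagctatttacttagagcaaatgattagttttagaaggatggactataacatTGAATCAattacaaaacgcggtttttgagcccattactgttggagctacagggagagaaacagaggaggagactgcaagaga
ERBB2: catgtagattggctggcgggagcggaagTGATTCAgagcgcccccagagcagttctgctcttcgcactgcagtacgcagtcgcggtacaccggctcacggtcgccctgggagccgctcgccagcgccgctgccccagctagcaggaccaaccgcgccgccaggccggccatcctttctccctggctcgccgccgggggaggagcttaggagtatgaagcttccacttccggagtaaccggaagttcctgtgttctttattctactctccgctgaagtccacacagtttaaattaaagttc

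The 4 windows differ in which of these letters they hold. PDGFRA had a GC content of 47% and 1 AP-1 match at base -32 from the start, with no GC box in this entry. ERBB2, with 60.7% GC, also had 1 AP-1 match, at -222. MET, with 69.3% GC, had 3 GC boxes and 1 E-box, at base 3. AXL, with 66% GC, had 2 GC boxes and none of the other letters. The second AXL entry (chr19:41226505-41226804, 53.7% GC) held 1 M-box core, 1 TEAD and 1 SOX match and no GC box, and the second PDGFRA entry (chr4:54233710-54234009, 66.7% GC) held 2 GC boxes and no AP-1 match. Over 35116 RefSeq windows of the same 300 bases, 7.71% held the AP-1 letters, 7.26% the E-box, 11.1% the M-box core, 14% the TEAD letters, 16.1% the SOX letters and 45% the GC box. These matches describe letters in a window and were not linked to the levels.

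With construct 86, AXL fell while MET, PDGFRA, PDGFRB and NGFR rose (limma, adjusted p under 0.05), so 5 of the 9 tested receptors passed, against 35.6% of all genes tested. By direction, 4 rose and 1 fell, where 18.0% of all genes rose and 17.6% fell. The median log2 fold change of the receptors was 0.74, against -0.04 over all genes. With construct 87, PDGFRA and NGFR rose and 0 fell (limma, with 3 up and 1 down at an unadjusted p under 0.05), which is 2 of 9 against 10.3% of all genes, of which 5.91% rose and 4.43% fell. The receptors' median was 0.40 against -0.000214 over all genes. Compared directly, construct 87 had more AXL and ERBB3 and less ERBB2, PDGFRA and PDGFRB than construct 86, which is 5 of 9 against 25.5% of all genes (12.7% higher, 12.9% lower). Both knockdown comparisons use the same 3 EV libraries.

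**Figure D1:**
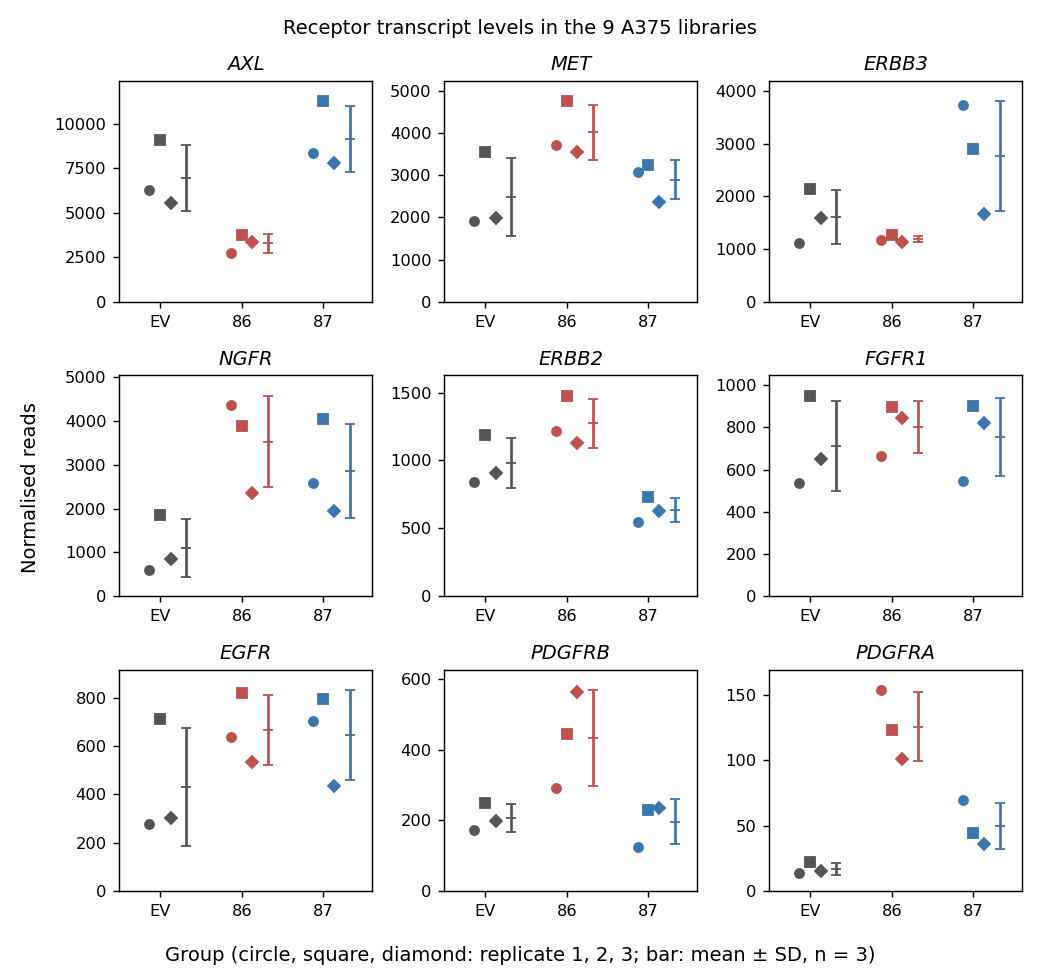
Normalised reads (vertical axes, each from 0) of the 9 tested receptors in every library, by group, with the mean and SD of 3 libraries beside the points. AXL with construct 86 lies below every other library, and PDGFRA lies between 13.3 and 21.9 in EV and at 100.8 or above with construct 86.

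AXL, a receptor of the TAM family that binds GAS6, had the highest level of the 10 in EV cells and the smallest adjusted p of the 9 receptors between the constructs. It stood at 6306, 9074 and 5546 in EV libraries 1 to 3, 2744, 3779 and 3343 in those of construct 86, and 8365, 11272 and 7797 in those of construct 87. The 3 construct 86 libraries lay below all others, while the construct 87 libraries overlapped those of EV at the upper end. Mean levels were 6975 ± 1857 in EV, 3289 ± 519.9 for construct 86 and 9145 ± 1864 for construct 87 (SD, n = 3 each). With construct 86 AXL was 2.09-fold lower (log2 fold change -1.06, SE 0.24, limma adjusted p = 0.00714). With construct 87 the log2 difference from EV was 0.40 (95% interval -0.13 to 0.94, adjusted p = 0.31), which did not pass in the main fit. Each construct 87 library was above the EV library of the same number. With the replicate block the limma adjusted p was 0.0667, and 0.0906 with the length trend removed as well, so the difference did not pass there either. Construct 87 stood 2.77-fold above construct 86 (adjusted p = 0.00182). Both AXL calls held in each leave-one-out fit and each other setting tried.

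ERBB2 and ERBB3 differed between the constructs in opposite directions. ERBB2, a kinase with no known ligand that pairs with other ERBB receptors, stood at 843, 1189 and 905 in EV libraries 1 to 3, 1216, 1478 and 1128 in those of construct 86, and 548, 729 and 631 in those of construct 87. All 3 construct 87 libraries were below all EV and construct 86 libraries, and construct 86 overlapped EV. Means were 979 ± 184 in EV, 1274 ± 182 for construct 86 and 636 ± 90.7 for construct 87 (SD, n = 3 each). ERBB2 was 2-fold lower with construct 87 than with construct 86 (log2 -1.0, SE 0.20, limma adjusted p = 0.00514). Neither difference from EV passed: 0.39 with construct 86 (adjusted p = 0.16) and -0.62 with construct 87 (adjusted p = 0.079). Blocking on the replicate number, they passed at adjusted p = 0.0321 and 0.00732, and with the trend by transcript length removed the construct 87 difference was -0.71 (adjusted p = 0.0163). The construct 86 difference was then 0.18 (adjusted p = 0.423, and 0.247 with the block as well).

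ERBB3, the neuregulin receptor whose own kinase is weak and which signals through ERBB2, was higher with construct 87 than with construct 86. Its levels were 1110.1, 2134 and 1592 in EV libraries 1 to 3, 1181, 1262 and 1135 in those of construct 86, and 3741, 2891 and 1676 in those of construct 87. Construct 86 libraries were closely grouped, and construct 87 libraries were all above them but spread widely, the lowest within the EV range. Means were 1612 ± 512 in EV, 1193 ± 64.6 for construct 86 and 2769 ± 1038 for construct 87 (SD, n = 3 each). Construct 87 exceeded construct 86 2.2-fold (log2 1.14, SE 0.31, limma adjusted p = 0.0204). With 1 library left out at a time, this call was lost without construct 86 replicates 1, 2 or 3 or construct 87 replicates 1 or 2 (adjusted p between 0.0525 and 0.0826). Against EV the log2 differences were -0.39 with construct 86 (adjusted p = 0.348) and 0.75 with construct 87 (adjusted p = 0.141). The second passed with the replicate block (adjusted p = 0.0448, but 0.0507 with the length trend removed as well) and the first with the length trend removed, at -0.69 (adjusted p = 0.0415).

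EGFR, the receptor for EGF and TGFA, stood at 277, 712 and 302 in EV libraries 1 to 3, 640.2, 822 and 535 in those of construct 86, and 704, 797 and 437 in those of construct 87. EV replicate 2 was higher than the other EV libraries and lay among the knockdown values, so all 3 groups overlapped. Means were 430.02 ± 244 in EV, 666 ± 146 for construct 86 and 646 ± 187 for construct 87 (SD, n = 3 each). The log2 differences from EV were 0.75 (95% interval -0.06 to 1.55, limma adjusted p = 0.133) and 0.68 (-0.12 to 1.48, adjusted p = 0.257), and neither passed. Blocking on the replicate number, both did, at adjusted p = 0.0112 and 0.0314. With the length trend removed the differences were 0.32 and 0.45 (adjusted p = 0.297 and 0.214, and 0.0984 and 0.042 with the block as well). Between constructs EGFR differed by -0.07 (-0.87 to 0.74, adjusted p = 0.919).

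MET, the receptor for hepatocyte growth factor, stood at 1923, 3547 and 1991 in EV libraries 1 to 3, 3722, 4754 and 3561 in those of construct 86, and 3075, 3244 and 2375 in those of construct 87. The lowest construct 86 library was just above the highest EV library, and the construct 87 libraries overlapped EV and lay below construct 86. Means were 2487 ± 918 in EV, 4012 ± 647 for construct 86 and 2898 ± 460.5 for construct 87 (SD, n = 3 each). MET rose 1.67-fold with construct 86 (log2 0.74, SE 0.26, limma adjusted p = 0.0467). The call was close to the threshold: it was lost without EV replicates 1 or 3, construct 86 replicates 1, 2 or 3 or construct 87 replicates 1 or 2 (adjusted p between 0.0615 and 0.164), and with the length trend removed the value was 0.39 (adjusted p = 0.0923, and 0.0179 with the replicate block as well). It was also lost without a variance trend (adjusted p = 0.062) and in a fit of EV and construct 86 alone (adjusted p = 0.0768). With construct 87 MET differed from EV by 0.27 (95% interval -0.30 to 0.84, adjusted p = 0.537). It differed from construct 86 by -0.47 (adjusted p = 0.212, 0.0376 with the replicate block, and 0.066 with block and length correction).

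PDGFRA, a receptor whose ligands include PDGF-A and PDGF-C, was scarce in EV cells and rose with both constructs. It stood at 13.3, 21.9 and 15.1 in EV libraries 1 to 3, 154, 123 and 101 in those of construct 86, and 69.4, 44.5 and 35.6 in those of construct 87. The groups did not overlap: every knockdown library exceeded every EV library, and every construct 86 library exceeded every construct 87 library. Means were 16.8 ± 4.54 in EV, 126 ± 26.7 for construct 86 and 49.8 ± 17.5 for construct 87 (SD, n = 3 each). The rise was 7.18-fold with construct 86 (log2 2.84, SE 0.33, limma adjusted p = 0.000248) and 2.81-fold with construct 87 (1.49, adjusted p = 0.0202). Construct 87 was 2.55-fold below construct 86 (adjusted p = 0.0137). The construct 86 call held in all settings. That with construct 87 was lost without EV replicates 1 or 3 or construct 87 replicates 1 or 2 (adjusted p between 0.0503 and 0.0988) and with EV and construct 87 alone (adjusted p = 0.055), and that between constructs without construct 86 replicate 1 or construct 87 replicates 2 or 3 (adjusted p between 0.0503 and 0.0555).

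PDGFRB, the sister receptor, whose ligands include PDGF-B and PDGF-D, rose with construct 86 and not detectably with construct 87. It stood at 171, 249 and 198 in EV libraries 1 to 3, 292, 445 and 563 in those of construct 86, and 124, 229 and 236 in those of construct 87. Construct 86 libraries were above all EV and construct 87 libraries, and the latter groups overlapped. Means were 206 ± 39.7 in EV, 434 ± 136 for construct 86 and 196 ± 62.7 for construct 87 (SD, n = 3 each). The rise with construct 86 was 2.05-fold (log2 1.03, SE 0.32, limma adjusted p = 0.0269), and construct 87 differed from EV by -0.11 (95% interval -0.81 to 0.59, adjusted p = 0.847). Construct 87 was 2.21-fold below construct 86 (adjusted p = 0.0226). The construct 86 call was lost without EV replicates 1 or 3 or construct 86 replicates 2 or 3 (adjusted p between 0.0658 and 0.0953) and with the length trend removed (0.74, adjusted p = 0.0785, and 0.00598 with the replicate block as well). The call between constructs was lost without construct 86 replicates 2 or 3 or construct 87 replicate 1 (adjusted p between 0.0747 and 0.0835). Fibroblast markers, 6 of 7 above 0 with THY1 at 0 and COL3A1 above 0 in the construct 87 files alone, summed to 178 to 319 normalised reads in EV, 647 to 831 with construct 86 and 674 to 936 with construct 87, and their part in the PDGFRA and PDGFRB results was not tested.

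NGFR, the neural crest marker among the 10, was higher in every knockdown library than in every EV library. It stood at 604, 1859.8 and 859 in EV libraries 1 to 3, 4349.7, 3882 and 2349.7 in those of construct 86, and 2579, 4048 and 1941 in those of construct 87. EV replicate 2 was the highest EV library, just under the lowest knockdown library, construct 87 replicate 3. Means were 1108 ± 664 in EV, 3527 ± 1046 for construct 86 and 2856 ± 1081 for construct 87 (SD, n = 3 each). NGFR rose 3.45-fold with construct 86 (log2 1.79, SE 0.41, limma adjusted p = 0.00788), a call that held in every setting tried. It rose 2.76-fold with construct 87 (1.46, SE 0.41, adjusted p = 0.0486). This second call was lost without EV replicates 1 or 3, construct 86 replicates 1, 2 or 3 or construct 87 replicates 1 or 2 (adjusted p between 0.0515 and 0.18), without a variance trend (adjusted p = 0.0669) and with EV and construct 87 alone (adjusted p = 0.0799). The constructs differed by -0.32 (95% interval -1.24 to 0.59, adjusted p = 0.615), so a difference of either sign was within the spread.

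FGFR1, a receptor of fibroblast growth factors, stood at 538, 949.98 and 649 in EV libraries 1 to 3, 663, 895 and 843 in those of construct 86, and 548, 899 and 821 in those of construct 87, and all 3 groups overlapped. Means were 712 ± 213 in EV, 801 ± 122 for construct 86 and 756 ± 185 for construct 87 (SD, n = 3 each). The log2 differences were 0.20 (95% interval -0.38 to 0.78) and 0.09 (-0.49 to 0.68) from EV, with limma adjusted p = 0.582 and 0.844. Their signs turned when the length trend was removed. KIT, the stem cell factor receptor of melanocyte development, was listed at 0 in all 9 libraries, which in these tables appears to mark a gene under the authors' filter on low values, so no level or upper limit can be given for it.

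**Figure D2:**
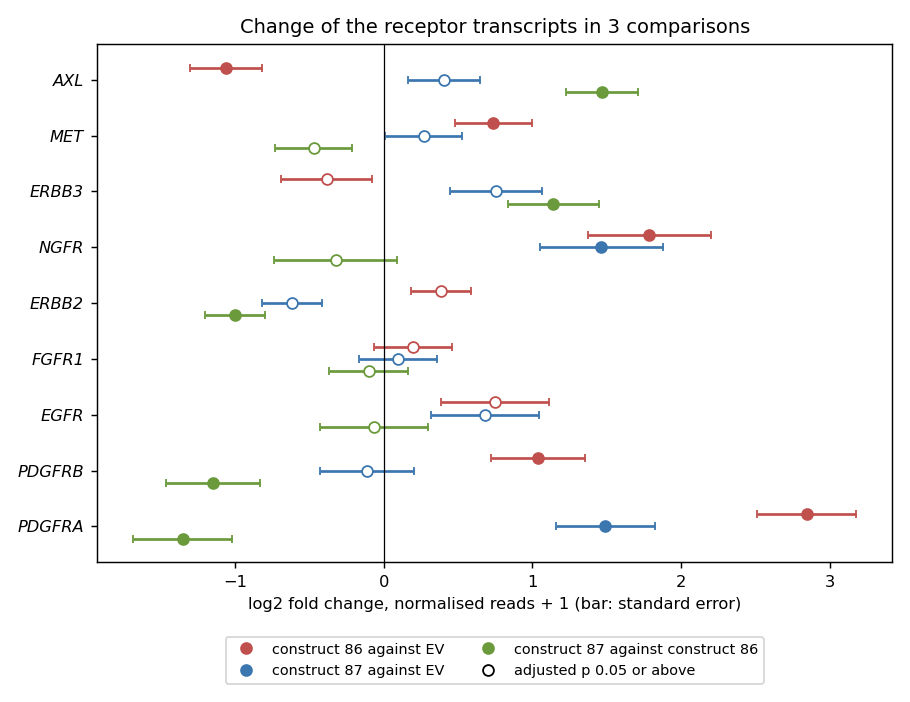
Log2 fold change of normalised reads + 1 (horizontal axis) for the 9 tested receptors in the 3 comparisons, with standard errors as bars and open points where the adjusted p was 0.05 or above. The AXL, ERBB2, ERBB3 and PDGFRB points for constructs 86 and 87 lie on opposite sides of 0 against EV, and of these only the AXL and PDGFRB values with construct 86 passed.

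The make-up of the receptor reads differed between the groups. AXL supplied 48.5% ± 4.34 of the reads of the 9 receptors in EV libraries (SD, n = 3), 21.6% ± 3.16 with construct 86 and 46% ± 3.32 with construct 87. In the construct 86 libraries the AXL share ran from 18.3% to 24.7%, against at least 42.3% in the other 6. NGFR supplied 7.23% ± 2.15, 22.9% ± 5.89 and 14% ± 2.44, and the 3 groups did not overlap. MET supplied 16.9% ± 0.903, 26.1% ± 1.2 and 14.6% ± 1.09, with construct 86 above all other libraries and construct 87 below all of them. ERBB2 had 6.9% ± 0.775 and 8.31% ± 0.171 but 3.25% ± 0.626 with construct 87, and PDGFRA stayed at most 1.03% in any library. Shares sum to 100% within a library, so a lower AXL share raises the others.

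**Figure D3:**
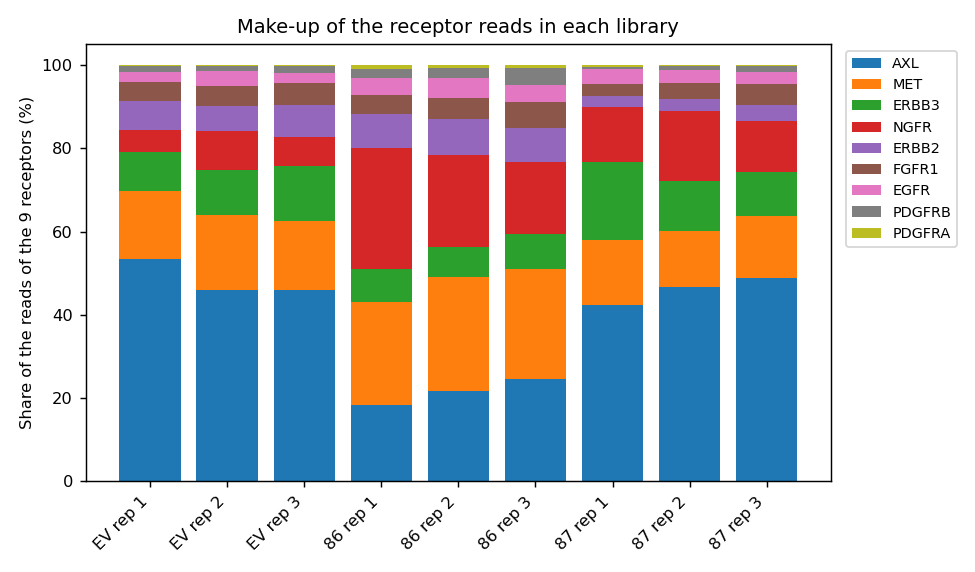
Share (%) of the normalised reads of the 9 receptors that each supplied, stacked for each of the 9 libraries. AXL takes 46% or more in each EV library and at most 24.7% with construct 86, where the MET and NGFR bands are wider.

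Per kilobase of the longest annotated transcript, AXL led in EV cells at 1472 ± 392 normalised reads per kb (SD, n = 3). MET (374.8 ± 138), NGFR (324 ± 194) and ERBB3 (272 ± 86.5) followed, and the ranges of these neighbours overlapped, as did those of ERBB3 and ERBB2 (204 ± 38.5). FGFR1 (118 ± 35.2), then EGFR (43.8 ± 24.9) and PDGFRB (36.1 ± 6.95), which overlapped, and PDGFRA (2.55 ± 0.69) came last. With construct 86, NGFR (1032 ± 306), AXL (694 ± 109.7) and MET (605 ± 97.5) led with overlapping neighbours. With construct 87, AXL (1930.5 ± 394) stood apart again, followed by NGFR (836 ± 316), ERBB3 (468 ± 175) and MET (437 ± 69.4). PDGFRA was last in all 3 groups. The kit counts 3' ends, so division by length can understate long transcripts, and the order depends on it. Without division, MET (mean 4012), NGFR (3527) and AXL (3289) led with construct 86, again with overlapping neighbours. AXL still led in EV and with construct 87, followed by MET.

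Ligands of the receptors changed in both directions. Of 30 ligands listed, 18 were tested. With construct 86, 7 rose and 4 fell, or 11 of 18 against 35.6% of all genes (median log2 0.58). With construct 87, 4 rose and 2 fell, or 6 of 18 against 10.3% of all genes (median -0.05). Between constructs 4 were higher and 8 lower with construct 87, against 25.5% of all genes in either direction. HGF, the ligand of MET, and the neurotrophin NTF3 were listed at 0 in all 9 libraries. NTF4, another neurotrophin, could not be tested because the construct 87 files list it at 0, and its deposited values were 1, 1 and 4 in EV libraries 1 to 3 and 24, 21 and 32 in those of construct 86.

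For AXL, its ligand GAS6 and the related TAM ligand PROS1 rose with construct 86, in which AXL itself fell. PROS1 stood at 306, 282 and 216 in EV libraries 1 to 3, 1235, 1195 and 985 in those of construct 86, and 670.5, 492 and 407 in those of construct 87, without overlap between the groups, which is 4.26-fold up with construct 86 (limma adjusted p = 0.000185) and 1.93-fold up with construct 87 (adjusted p = 0.0264). GAS6 was 204, 253 and 161 in EV and 312, 497 and 379 with construct 86, a 1.91-fold rise (adjusted p = 0.0217). With construct 87 it differed by 0.65 on the log2 scale (adjusted p = 0.153, and 0.0312 with the replicate block). The PROS1 call with construct 87 was lost without EV replicates 1 or 3 or construct 87 replicates 1 or 2 at adjusted p up to 0.124, and in a fit of 2 groups, and the GAS6 call without EV replicates 1 or 3 or construct 86 replicate 2 at adjusted p up to 0.0963.

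Of the ligands of EGFR and its relatives, TGFA rose with both constructs. It stood at 2736, 3325 and 3762 in EV libraries 1 to 3, 5572, 5356 and 7222 in those of construct 86, and 8474, 6434 and 6566 in those of construct 87, with all knockdown libraries above EV, which is 1.85-fold with construct 86 (limma adjusted p = 0.0088) and 2.19-fold with construct 87 (adjusted p = 0.00959, lost without construct 87 replicate 1 at adjusted p = 0.0552). BTC, or betacellulin, rose 4.88-fold with construct 87 (adjusted p = 0.0067), from 24.4, 31.1 and 34.5 to 214, 127 and 121, and exceeded construct 86 3.64-fold (adjusted p = 0.00593). HBEGF rose 1.73-fold with construct 87 (adjusted p = 0.0377, lost without EV replicate 3, construct 86 replicate 2 or construct 87 replicates 1, 2 or 3 at adjusted p up to 0.127, and in a fit of 2 groups). AREG, or amphiregulin, fell with construct 86 (adjusted p = 0.00141). Its levels were 21.1, 32 and 39.9 in EV and 0, 2.64 and 2.34 with construct 86, where the construct 86 values are 5 reads in all, and 5.25, 7.71 and 17.3 with construct 87 (adjusted p = 0.119, and 0.0168 with the replicate block).

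The neuregulins, ligands of ERBB3, went opposite ways. NRG1 stood at 211, 202 and 108 in EV libraries 1 to 3, 121, 86.1 and 61 in those of construct 86, and 275, 334 and 271 in those of construct 87, and fell 1.92-fold with construct 86 (limma adjusted p = 0.0409, lost without EV replicates 1 or 2, construct 86 replicates 2 or 3 or construct 87 replicates 1, 2 or 3 at adjusted p up to 0.14, and in a fit of 2 groups). Construct 87 exceeded construct 86 3.37-fold (adjusted p = 0.00308), the same side as ERBB3. NRG2 stood at 120.01, 136 and 117 in EV libraries 1 to 3, 176, 196 and 176 in those of construct 86, and 54.6, 66.8 and 70.3 in those of construct 87, and fell 1.94-fold with construct 87 (adjusted p = 0.019, lost without EV replicate 1 or construct 87 replicates 1 or 2 at adjusted p up to 0.0872, and in a fit of 2 groups), 2.84-fold below construct 86 (adjusted p = 0.000794), the same side as ERBB2. NRG1 in construct 86 overlapped EV by 1 library, and NRG2 in construct 87 lay below all other libraries.

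Among PDGF ligands, PDGFC and PDGFD rose with construct 86 and PDGFA fell. PDGFC went from 241, 268 and 345 to 436, 536 and 701 (1.94-fold, limma adjusted p = 0.0124), with no overlap. PDGFD went from 22.2, 14.6 and 19.4 to 79.4, 59.7 and 44.6 (3.11-fold, adjusted p = 0.0377, lost without EV replicates 1, 2 or 3 or construct 86 replicates 1 or 2 at adjusted p up to 0.112). PDGFA went from 178, 189 and 135 to 97.8, 109 and 96.1, 1.64-fold lower (adjusted p = 0.0347, lost without EV replicates 1 or 2 or construct 86 replicates 1, 2 or 3 at adjusted p up to 0.0952, and with the length trend removed or in a fit of 2 groups). None of these passed with construct 87, and PDGFB passed in neither.

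Among the other ligands, FGF5 rose 6.25-fold with construct 86 (limma adjusted p = 0.000209), from 25.6, 16.4 and 14 to 137, 125 and 97.3. In construct 87 libraries it stood at 35.7, 36.8 and 41.7, all above EV, 2.04-fold higher (adjusted p = 0.0536, and 0.0155 with the replicate block). FGF2 rose 1.53-fold with construct 86 (adjusted p = 0.028, lost without EV replicates 1 or 3 or construct 86 replicates 1 or 2 at adjusted p up to 0.0936, and with the length trend removed or in a fit of 2 groups). KITLG, the ligand of KIT, fell 2.78-fold with construct 87 (adjusted p = 0.0211, lost without EV replicate 1 or construct 87 replicates 1 or 2 at adjusted p up to 0.0899), from 190.01, 141 and 99.2 to 53.6, 41.1 and 54, below all other libraries. BDNF, a neurotrophin that NGFR can bind, fell 2.05-fold with construct 86 (adjusted p = 0.0131, lost without construct 86 replicate 2 at adjusted p = 0.0594), and its construct 87 libraries overlapped EV.

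**Figure D4:**
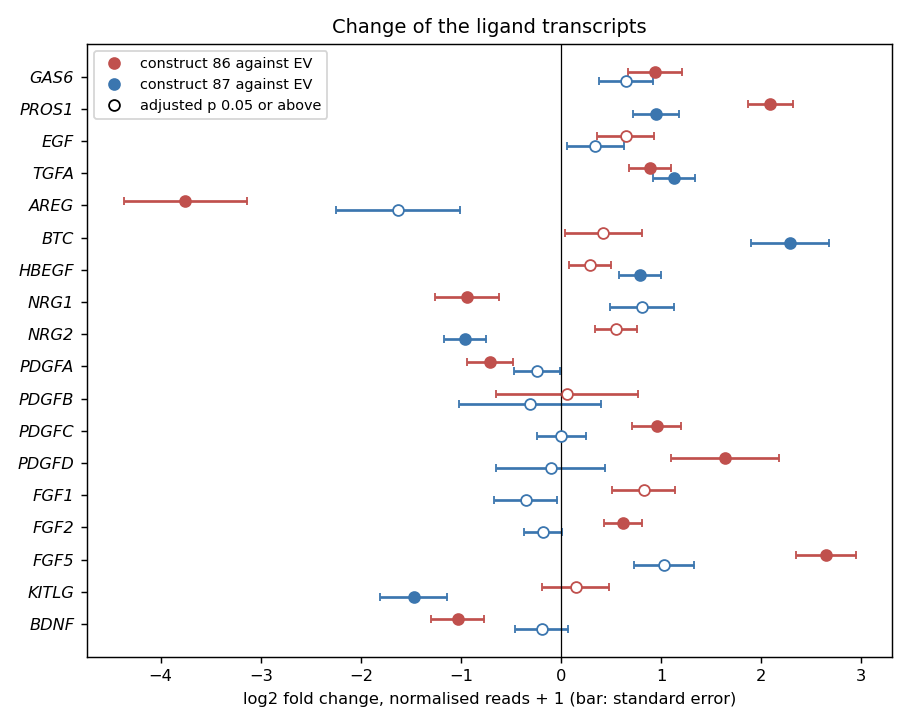
Log2 fold change of normalised reads + 1 (horizontal axis) for the 18 tested ligands against EV, with standard errors as bars and open points where the adjusted p was 0.05 or above. PROS1 and TGFA have filled points to the right of 0 for both constructs, and AREG lies farthest to the left with construct 86.

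Of 49 other receptor tyrosine kinases, 27 were tested. With construct 86, 11 rose and 2 fell, against 18.0% and 17.6% of all genes (median log2 0.48). With construct 87, 2 rose and 0 fell, against 5.91% and 4.43% of all genes (median -0.08, limma, with 4 up and 3 down at an unadjusted p under 0.05). MST1R, the receptor of macrophage-stimulating protein and a relative of MET, stood at 48.9, 62.1 and 59.3 in EV libraries 1 to 3, 2.91, 7.03 and 3.52 in those of construct 86, and 32.6, 36.8 and 17.3 in those of construct 87. It fell 11-fold with construct 86 (adjusted p = 0.000263), the opposite direction to MET. The construct 86 values of MST1R are 14 reads in all, so the size of this fall is uncertain. PTK7, a pseudokinase, rose 3.1-fold with construct 86 (adjusted p = 0.000199), from 314, 400.1 and 352 to 972, 1272 and 1079, and EPHB3, an ephrin receptor, rose 7.33-fold (adjusted p = 0.00054). Of the 22 untested members, 6 were above 0 in part of the files and were picked out after their values were seen. ALK had deposited values of 1, 5 and 4 in EV libraries 1 to 3 and 71, 96 and 51 in those of construct 86. MERTK, the TAM relative of AXL, had 8, 5 and 6 against 34, 42 and 36, and TEK 8, 9 and 10 against 48, 44 and 33. EPHA5 had 2, 9 and 4 against 24, 16 and 14, and LMTK3 had 3, 7 and 16 against 7, 25 and 47, the latter with overlap. CSF1R had values in the construct 87 files alone (20, 17 and 21). KDR, a VEGF receptor, rose 15.3-fold and 8.54-fold with constructs 86 and 87 (adjusted p = 0.000454 and 0.0065).

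Downstream of the receptors, 12 of 28 tested adaptors and signal relays rose and 2 fell with construct 86, against 18.0% and 17.6% of all genes (median log2 0.82). With construct 87, 4 rose and 0 fell, against 5.91% and 4.43% of all genes (median 0.31, limma, with 9 up and 1 down at an unadjusted p under 0.05). SHC4, an SHC-family adaptor, stood at 164, 167 and 211 in EV libraries 1 to 3, 613, 668 and 774 in those of construct 86, and 420.4, 397 and 364 in those of construct 87, with no overlap among the groups. It rose 3.78-fold with construct 86 (adjusted p = 0.000106) and 2.18-fold with construct 87 (adjusted p = 0.0065). RASA1, a RAS GTPase-activating protein that docks on phosphorylated receptors and switches RAS off, rose 1.91-fold (adjusted p = 0.0144, lost without EV replicate 1 or construct 86 replicate 2 at adjusted p up to 0.062) and 3.86-fold (adjusted p = 0.00241). FYN, an SRC-family kinase, rose 2.9-fold and CRK, an SH2 adaptor, 1.78-fold with construct 86 (adjusted p = 0.000234 and 0.00259), and neither passed with construct 87.

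The negative regulators, which limit receptor signals, and the sheddases, which cut receptors and ligands from the surface, were all tested: 12 of 22 rose and 1 fell with construct 86, against 18.0% and 17.6% of all genes (median log2 0.79, limma). With construct 87, 1 rose and 2 fell, a share near the 10.3% of all genes called (median 0.28, limma, with 5 up and 2 down at an unadjusted p under 0.05). TIMP3, a metalloprotease inhibitor counted in this list, rose with construct 86 and fell with construct 87. ADAM17, the metalloprotease that releases TGFA and AREG and cleaves several receptors, stood at 867, 960.03 and 1009.95 in EV libraries 1 to 3, 2117, 2549 and 2239 in those of construct 86, and 2008, 2009 and 1723 in those of construct 87. All knockdown libraries exceeded EV, by 2.43-fold and 2.02-fold (adjusted p = 0.000417 and 0.00607). ADAM10, a related sheddase, rose 2.34-fold with construct 86 (adjusted p = 0.00113). PTPRJ, a receptor phosphatase, rose 4.72-fold (adjusted p = 0.000382) and LRIG3 3.61-fold (adjusted p = 0.000521), also with construct 86. Against construct 86, construct 87 had lower ADAM10, PTPRJ and LRIG3 (adjusted p = 0.00536, 0.00289 and 0.00375).

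Among partners of NGFR, 8 of 10 were tested, and 3 rose and 1 fell with construct 86, against 18.0% and 17.6% of all genes (median log2 0.34). With construct 87, 1 rose and 0 fell, against 5.91% and 4.43% of all genes (median 0.39, limma, with 2 up and 0 down at an unadjusted p under 0.05). SORT1, the sortilin co-receptor for proneurotrophins, stood at 628, 747 and 477 in EV libraries 1 to 3, 1214, 1402 and 1020.1 in those of construct 86, and 1781, 1490.02 and 909 in those of construct 87. It rose 1.98-fold (adjusted p = 0.0174, lost without EV replicate 3 or construct 86 replicate 2 at adjusted p up to 0.0713) and 2.21-fold (adjusted p = 0.0249, lost without EV replicates 1 or 3 or construct 87 replicates 1 or 2 at adjusted p up to 0.12, and in a fit of 2 groups), the same direction as NGFR. TRAF6, a signalling adaptor, rose 2.29-fold with construct 86 (adjusted p = 0.0189, lost without EV replicate 3 or construct 86 replicates 1 or 2 at adjusted p up to 0.068). SORCS2, a sortilin-related receptor, rose 3.31-fold (adjusted p = 0.0258, lost without EV replicates 1 or 3 or construct 86 replicates 2 or 3 at adjusted p up to 0.106), and IRAK1, a signalling kinase, fell 2.11-fold (adjusted p = 0.0167, lost without EV replicate 1 or construct 86 replicate 3 at adjusted p up to 0.0663).

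Transcription factors of the melanoma states were set beside the receptors. In the melanocytic list, 4 of 9 tested rose and 1 fell with construct 86, against 18.0% and 17.6% of all genes (median log2 0.28). With construct 87, 1 rose and 1 fell, against 5.91% and 4.43% of all genes (median -0.18). SOX10, the neural crest factor of the melanocyte lineage, stood at 2266, 5889.9 and 2625 in EV libraries 1 to 3, 12748, 19641 and 14769.8 in those of construct 86, and 10558, 11347 and 7095 in those of construct 87. It rose 4.73-fold (limma adjusted p = 0.00112) and 2.89-fold (adjusted p = 0.0223, lost without EV replicates 1 or 3 or construct 87 replicates 1 or 2 at adjusted p up to 0.102). MITF, the master regulator of pigment cells, was -0.11 and 0.33 from EV on the log2 scale (adjusted p = 0.78 and 0.451). LEF1 rose 2.37-fold and ETV5 1.62-fold with construct 86 (adjusted p = 0.00162 and 0.0149), and FOXD3 fell 1.86-fold (adjusted p = 0.0157). ETV5 was lost without construct 86 replicates 1 or 2 at adjusted p up to 0.0567 and FOXD3 without EV replicate 1 or construct 86 replicates 2 or 3 at adjusted p up to 0.0593. With construct 87, FOXD3 was 1.78-fold lower than in EV, with all libraries below EV (adjusted p = 0.0542, and 0.0124 with the replicate block).

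In the dedifferentiated list, all 14 were tested, and 6 rose and 1 fell with construct 86, against 18.0% and 17.6% of all genes (median log2 0.65). With construct 87, 1 rose and 2 fell, against 5.91% and 4.43% of all genes (median -0.00337). JUN, an AP-1 subunit, stood at 713, 791 and 484 in EV libraries 1 to 3, 1386, 1536 and 1206 in those of construct 86, and 1843, 1578 and 1212 in those of construct 87 and rose 2.11-fold and 2.34-fold (limma adjusted p = 0.0057 and 0.0104, the second lost without construct 87 replicate 1 at adjusted p = 0.06). SOX9 fell 4.19-fold with construct 86 (adjusted p = 0.00185) and ZEB1 rose 2.35-fold (adjusted p = 0.00925). With construct 87, ZEB1 was 1.78-fold higher, with all libraries above EV (adjusted p = 0.0989, and 0.00932 with the replicate block). TEAD4, a partner of YAP1, fell 2.21-fold with construct 87 (adjusted p = 0.0119, lost without EV replicate 1 or construct 87 replicate 1 at adjusted p up to 0.0608). With construct 86, TEAD4 was 1.5-fold lower, with all libraries below EV (limma adjusted p = 0.0646, and 0.0187 with the replicate block). YAP1 itself, TEAD1, WWTR1 and NFATC2 were called higher with construct 86, and none of them was called with construct 87. SOX2 was called lower with construct 87. Melanocyte markers were present in these cells in part: 7 of 12 were above 0, with MLANA, TYR, TYRP1, DCT and GPR143 listed at 0.

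By likeness of pattern over the 9 libraries (Pearson r of log2 levels, among 11805 genes with a mean of at least 50 normalised reads), the genes nearest to AXL included PLCD3 (0.987) and MAP7D1 (0.986). ERBB2 was nearest to NIN (0.997), SUSD2 (0.989) and QSOX2 (0.985), and ERBB3 to DOPEY1 (0.974), ATXN7L1 (0.963) and PRKACB (0.961). MET was nearest to WAC (0.995), SEPN1 (0.995) and ADNP (0.991), and NGFR to PLXDC2 (0.979), PDZD8 (0.976) and PAN3 (0.971). For PDGFRA they were RAB15 (0.994), GALNT2 (0.994) and SCARB2 (0.993), and for PDGFRB EMILIN1 (0.978), SLC12A8 (0.971) and COL6A2 (0.964), of which EMILIN1 and COL6A2 encode extracellular matrix proteins. The 9 points share groups and replicate numbers, and r is given as a description.

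Replicates carried a shared pattern that touched the receptors. EV replicate 2 was the highest EV library for 9 of 9 receptors and EV replicate 1 the lowest for 8, and replicate 2 was highest for 6 of 9 with each construct. Levels also followed transcript length differently by library: per doubling of length the log2 level changed by -0.272, 0.13 and -0.279 in EV libraries 1 to 3, 0.124, 0.253 and 0.0605 in those of construct 86, and 0.0418, 0.0964 and -0.155 in those of construct 87 (13263 genes). The receptors have long transcripts, from 3417 nt (NGFR) to 9821 nt (EGFR). Among the 5988 tested genes of that length range, 25.3% rose and 11.97% fell with construct 86, with a median log2 of 0.21, and 7.77% rose and 3.66% fell with construct 87, with a median of 0.12. The other gene lists above were set against all genes tested without matching for length, and the part of length in their counts was not tested. With the length trend removed, MET went from 0.74 to 0.39 and PDGFRB from 1.03 to 0.74 with construct 86, and neither was called. Both were called with the replicate block added to that correction, and the construct 86 calls of AXL, PDGFRA and NGFR held in both fits. Removing the length trend also added calls for ERBB3 with construct 86 and for ERBB2 with construct 87.

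**Figure D5:**
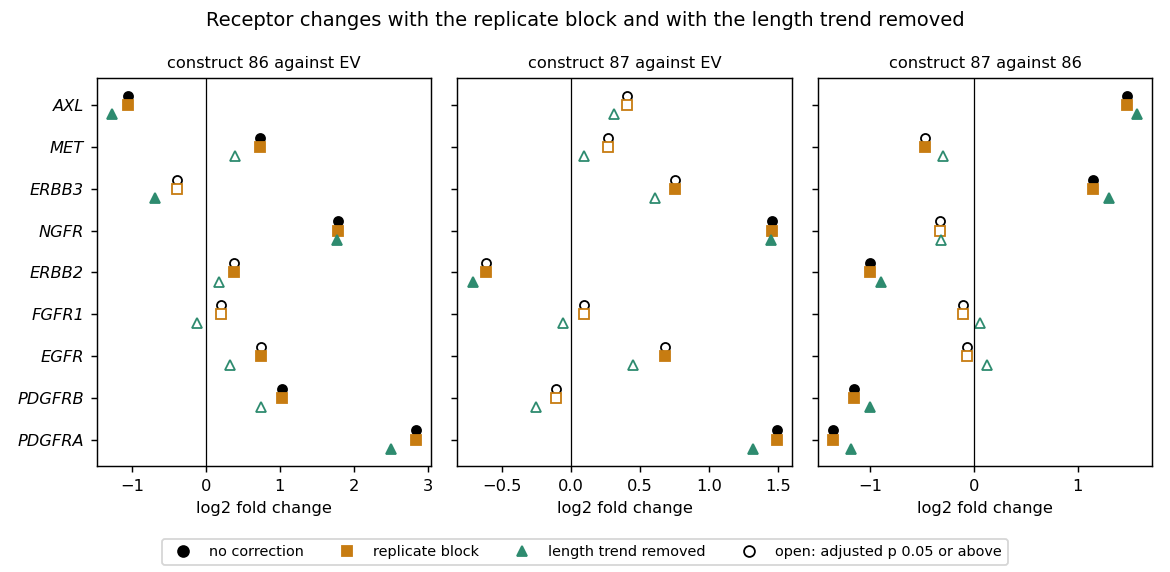
Log2 fold change of the 9 tested receptors (horizontal axis) in the 3 comparisons without correction (circles), with the replicate number as a block (squares) and with the transcript length trend removed (triangles), open where the adjusted p was 0.05 or above. The length correction moves most receptors down against EV and leaves AXL, PDGFRA and NGFR filled with construct 86, where ERBB3 becomes filled as well.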

How the data were processed

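Per the labels' protocols, QuantSeq 3' mRNA-Seq libraries of A375 cells were sequenced as single reads. The tools of the authors, in the submitters' processing notes, were edgeR, STAR and featureCounts from Subread (no versions), with hg19 as build. The deposited values are scores: whole numbers from reads that the authors multiplied by a constant per library and rounded. Each library's constant was recovered from the spacing of its low values. IDs at 0 in whole groups (400 above 0 only in EV and construct 86, 453 only in construct 87) may reflect a filter by the authors, so 0 across a group is not read as absence of expression. The 9 libraries were rescaled with the TMM formula (trimming 30% of log ratios and 5% of abundances).

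Values were tested as log2(value + 1) with limma 3.58.1 in R 4.3.3 with a variance trend, 1 coefficient per group and 6 residual degrees of freedom. This scale understates changes of low genes. A count test was planned only for raw counts. Two-sided p-values were adjusted (Benjamini-Hochberg) over 13825 genes and called under 0.05. The method was tested on simulated data with known changes, which lacked the replicate and length patterns of these libraries. Same-numbered libraries deviated together (r from 0.198 to 0.753 in 9 pairs, -0.668 to 0.165 in the other 18), so the replicate numbers of the labels appear to pair libraries. The main fit has no replicate term, so p-values given without the block ignore this pairing. The replicate block was fitted as an alternative.

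Lengths were the longest GENCODE v29 basic transcript per gene (99.6% of genes tested), and the length correction removed a spline with 4 degrees of freedom per library. Receptors and lists were chosen with earlier results of these data known. Named genes are the 10 receptors, SPANXC, SPANXD, MITF, SOX10, every tested ligand, from each other list up to 4 called members ranked by adjusted p of the average of the constructs, and the 3 genes most correlated with each called receptor. Some items that this rule or the lists name are not reported here. Of the markers of other cells in the tables, 0 of 3 endothelial, 2 of 6 keratinocyte, 1 of 5 blood and 6 of 7 fibroblast markers were above 0. Promoter sequences are from RefSeq on GRCh38.p14. Other scalings, pseudocounts (0.5 and 5), filters, variance models, the replicate block and omission of each library were tried.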

Additional observations from a re-analysis of the deposited data

Results flagged for a closer look

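For 5 receptors the effects of the constructs differed from each other by a direct limma test over all 9 libraries. AXL was higher with construct 87 than with construct 86 by 1.47 on the log2 scale (adjusted p = 0.00182), above in 3 of 3 libraries against all 3. ERBB3 was higher by 1.14 (adjusted p = 0.0204). ERBB2 differed by -1.0 (adjusted p = 0.00514), PDGFRA by -1.35 (adjusted p = 0.0137) and PDGFRB by -1.15 (adjusted p = 0.0226), each with all 3 construct 87 libraries below all 3 construct 86 libraries. AXL and ERBB2 kept these calls without any single library. Of all genes tested, 25.5% differed between constructs.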

How the results depend on the processing

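Counts of genes moved most with the replicate block and with single libraries left out. All genes called numbered 4926 with construct 86, 7646 with the replicate block, 7601 with block and length correction, and 3059 to 6014 with 1 library left out. With construct 87 they numbered 1430, 4282 with the block, 4758 with block and length correction, 2627 over every gene above 0, 857 with 2 groups alone and 368 to 2553 with 1 library left out. Between constructs they numbered 3532, 6094, 6533 and 2207 to 4191, in the order main, block, block with length, and 1 library left out. Receptors called numbered 3 to 6 (of 9) with construct 86, 0 to 4 with construct 87 and 3 to 5 between constructs with 1 library left out. With construct 87 they were 1 without a variance trend, 5 with the block, 4 with block and length correction and 0 with 2 groups alone (3 at an unadjusted p under 0.05, limma). Where leaving out 1 library gave 0, 2 or 3 receptors passed unadjusted.

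The block added 6 receptor calls and lost 0 of 12, and added 23 and lost 0 among the other named genes, GAS6 and AREG with construct 87 among them. It changed no other receptor call than those given beside the results. Of 540 receptor values under other settings, 470 kept side and direction, 15 crossed into the threshold, 40 out of it and 15 reversed. Of 2697 for the other 45 named genes, 2480, 68, 123 and 26 did so.

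All reversed values had no call. With the length trend removed, with or without the block, they were -0.116, -0.0583 and 0.0578 for FGFR1 (construct 86, construct 87, between constructs), 0.129 for EGFR between constructs, -0.0593 for PDGFC with construct 87, -0.148 for KITLG with construct 86 and -0.0282 for FOXD3 between constructs. Median-of-ratios scaling gave -0.00805 for PDGFC with construct 87. With 1 library left out, the log2 range took in both signs, at -0.0867 to 0.323 for FGFR1, -0.274 to 0.189 for PDGFRB, -0.852 to 0.485 for PDGFB, -0.158 to 0.149 for PDGFC, -0.811 to 0.313 for PDGFD, -0.335 to 0.0748 for BDNF and -0.173 to 0.902 for SORCS2 with construct 87. With construct 86 they were -0.412 to 0.12 for MITF, -0.566 to 0.522 for PDGFB and -0.139 to 0.419 for KITLG, and between constructs -0.24 to 0.193 for EGFR, -0.244 to 0.113 for FGFR1, -0.914 to 0.423 for PDGFB, -0.0461 to 0.439 for SORT1 and -0.057 to 0.179 for FOXD3. The cause of these changes was not tested. Genes with few reads, such as AREG with construct 86, are limited by depth.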

Other observations

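Over the 9 libraries the receptors fell into patterns that are given here as descriptions, since the points share groups and replicate numbers. EGFR ran with MET (Pearson r = 0.90, n = 9) and NGFR (r = 0.90), MET with NGFR (r = 0.86) and PDGFRA with NGFR (r = 0.86). MET also ran with PDGFRA (r = 0.81), AXL with ERBB3 (r = 0.78) and ERBB2 with PDGFRB (r = 0.75). AXL ran opposite to ERBB2 (r = -0.67) and PDGFRB (r = -0.64), and ERBB2 opposite to ERBB3 (r = -0.65). The melanocyte marker list, led by SOX10 and S100A1, summed to between 3442 and 6922 normalised reads in EV, 15743 to 21978 with construct 86 and 8917 to 13076 with construct 87. SOX10 made up most of this sum, with means of 3593 in EV, 15719.5 with construct 86 and 9667 with construct 87. Only SOX10 and S100A1 were called higher with construct 86 (limma). With construct 87 both were called higher and PAX3 lower. MITF passed with neither construct. LYZ, the only blood marker above 0, ranged from 145 to 262 in EV, 238 to 336 with construct 86 and 366 to 819 with construct 87. Keratinocyte markers KRT10 and KRT14 summed to 1032 to 2190, 693 to 1171 and 1349 to 1799. The part of these markers in the receptor results was not tested.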
